A study of Homo sapiens with 16 samples.

Results

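The respiratory chain subunits are 103 of the 62754 genes in the counts table. They were chosen by name: every protein-coding gene whose symbol starts with MT-ND, MT-CO, MT-CYB, MT-ATP, NDUFA, NDUFB, NDUFC, NDUFS, NDUFV, UQCR, COX4 to COX8 or ATP5, together with SDHA to SDHD, leaving out assembly factors and pseudogenes. Mitochondrial DNA encodes 13 of them and nuclear DNA the other 90. The rule uses symbols and gene type. The 181 genes with a matching symbol that are not protein-coding, 174 of them pseudogenes, were left out. Of the 103, 95 had enough counts to be tested, which are all 13 mitochondrially encoded and 82 nuclear-encoded genes, out of 18549 genes tested in all. The 8 that were not tested held between 0 and 79 counts over all 16 libraries: COX4I2, COX6A2, COX6B2, COX7A1, COX8C, ATP5MGL and the readthrough genes ATP5MF-PTCD1 and NDUFC2-KCTD14.

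The study sequenced total RNA of LNCaP cells, an androgen-responsive line of human prostate cancer, to ask how loss of p53 and inhibition of the kinase GCN2 act together on expression. GCN2 senses uncharged tRNA and phosphorylates eIF2, which raises ATF4. GCN2iB blocks its kinase activity. The 4 groups, with 4 libraries each, were WT cells with vehicle (DMSO), WT cells with 5 µM GCN2iB, p53 KO cells with vehicle and p53 KO cells with 5 µM GCN2iB. Vehicle or compound was given for 48 h, starting 1 day after 350000 cells had been plated in 6-well plates. The p53 KO cells were made with CRISPR, and the labels do not say whether they are 1 clone or a pool. The labels also do not say that the 4 libraries of a group come from separate cultures, so p-values measure only the spread between these libraries, which may be technical.

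The respiratory chain passes electrons from NADH through complex I, or from succinate through complex II, to ubiquinone, then through complex III, cytochrome c and complex IV to oxygen, and complex V uses the resulting proton gradient to make ATP. Mitochondrial DNA encodes core membrane subunits of complexes I, III, IV and V, transcribed as long polycistronic RNAs by the mitochondrial RNA polymerase, and none of complex II. All other subunits are transcribed in the nucleus, translated in the cytosol and imported, so each complex other than complex II needs products of both genomes.

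Library totals ran from 17418072 to 39915685 counts. CDKN1A, the p53 target that encodes p21, served as the check of genotype and lay at 274 ± 21 CPM (counts divided by the TMM-scaled library total; mean ± SD, n = 4) in WT and 37.5 ± 3.72 CPM in p53 KO cells with vehicle. ATF4 mRNA, the check of the compound, fell with GCN2iB in both genotypes, by 1.22 on the log2 scale in WT and by 0.83 in p53 KO cells. Luminal prostate markers summed to a group mean of between 5496 and 6602 CPM, against at most 6.8 CPM for neuroendocrine, 4.06 CPM for basal and 26.1 CPM for stromal markers, and KRT5, TP63, INSM1 and PTPRC were at or near 0 in every library. Luminal markers were also lower with GCN2iB (6 of 9 in WT and 4 of 9 in p53 KO cells, beside 13.6% and 8.71% of all genes). Some markers differed between genotypes (basal 2 of 2 tested higher, luminal 1 higher and 4 lower of 9 with vehicle). With GCN2iB, 1 of the 2 basal markers was higher in p53 KO cells, and 1 luminal marker was higher and 2 were lower. Of all genes, 9.63% were higher and 12.1% lower with vehicle, and 12.7% and 11.2% with GCN2iB. VIM, a mesenchymal filament and stromal marker, was higher in p53 KO cells by 0.97 with vehicle and 1.01 with GCN2iB on the log2 scale. COL1A1, another stromal marker, went the other way, at −0.28 and −0.36. Of the 4 stromal markers tested, 1 was higher and 1 lower under each treatment. The neuroendocrine marker SYP was higher in p53 KO cells by 0.36 and 0.54. LYZ, a blood cell marker, was also called higher in p53 KO cells under both treatments, at no more than 1.36 CPM in any library, and the stromal sum had means of 25.5 CPM in WT and 26.1 CPM in p53 KO cells with vehicle. Their part in the results below was not tested. Among the libraries, p53 KO GCN2iB replicate 4 stood apart in the nuclear sum described below and WT vehicle replicate 1 held the highest mitochondrial sum of its group, and results that rest on them are given with and without them.

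Because the comparison is between 2 genomes that differ in gene layout, a stretch of each is shown. On mitochondrial DNA the genes are packed so closely that some share bases. MT-ATP8 and MT-ATP6, both encoding membrane subunits of ATP synthase, share 46 bases at chrM:8527-8572 on the plus strand (GRCh38, GENCODE 29), in which the capitals mark the start codon of MT-ATP6 and the last bases of MT-ATP8:
MT-ATP8 and MT-ATP6 overlap: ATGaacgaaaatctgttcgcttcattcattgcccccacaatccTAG
MT-ND4L and MT-ND4, of complex I, likewise share 7 bases at chrM:10760-10766. Reads in these stretches belong to both genes, so the counts of MT-ATP8 and MT-ND4L, the shorter partners, are the less certain.

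Nuclear members lie on many chromosomes. The promoters of NDUFB4, NDUFA6 and SDHB were picked because these genes rose with GCN2iB in both genotypes, as described below, and their promoters hold motifs of factors known to act on nuclear genes of mitochondrial proteins, so they do not stand for the members that rose. The windows run from 250 bases before to 50 after the RefSeq start (GRCh38.p14), at chr3:120596086-120596385 on the plus strand for NDUFB4, chr22:42090723-42091022 on the minus strand for NDUFA6 and chr1:17053983-17054282 on the minus strand for SDHB. Capitals mark the NRF1 motif, GCGCA and GCGC with any base between them, or its reverse complement in NDUFB4 and the YY1 motif AAGATGGC in the other two:
NDUFB4 promoter: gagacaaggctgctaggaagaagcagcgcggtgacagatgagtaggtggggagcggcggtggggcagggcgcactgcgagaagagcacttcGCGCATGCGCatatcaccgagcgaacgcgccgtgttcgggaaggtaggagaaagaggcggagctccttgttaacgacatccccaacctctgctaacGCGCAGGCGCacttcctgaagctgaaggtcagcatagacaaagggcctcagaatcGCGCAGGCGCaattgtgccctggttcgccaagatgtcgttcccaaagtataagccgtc
NDUFA6 promoter: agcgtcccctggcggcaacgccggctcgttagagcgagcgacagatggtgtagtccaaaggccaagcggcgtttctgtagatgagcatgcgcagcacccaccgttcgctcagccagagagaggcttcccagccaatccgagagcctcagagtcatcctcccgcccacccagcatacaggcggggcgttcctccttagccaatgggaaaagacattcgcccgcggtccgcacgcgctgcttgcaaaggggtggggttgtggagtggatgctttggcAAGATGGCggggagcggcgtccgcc
SDHB promoter: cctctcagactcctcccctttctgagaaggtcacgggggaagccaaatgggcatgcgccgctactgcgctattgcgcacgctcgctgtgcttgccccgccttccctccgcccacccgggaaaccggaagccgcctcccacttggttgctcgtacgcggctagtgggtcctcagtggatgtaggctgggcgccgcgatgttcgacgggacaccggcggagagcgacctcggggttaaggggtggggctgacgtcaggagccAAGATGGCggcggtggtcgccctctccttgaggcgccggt
The NDUFB4 window holds 3 NRF1 motifs, whose first bases lie at −159, −63 and −8 from the start, and the YY1 motif starts at position 26 in NDUFA6 and 11 in SDHB. RefSeq promoters were matched for 71 of the 90 nuclear members, and 3 motifs were searched on both strands without mismatch. The NRF1 motif was in 17 of 71 (23.9%), against 5.78% of all 35116 promoters of the same length. The YY1 motif was in 11 (15.5%, against 2.89%) and the GABPA motif CCGGAAGT in 10 (14.1%, against 4.14%). By the calls given below for GCN2iB, the NRF1 motif was in 4 of 20 promoters of members that rose in WT cells (20%) and 12 of 43 of those not called (27.9%), and in p53 KO cells in 9 of 22 (40.9%) and 7 of 45 (15.6%). The YY1 motif was in 4 of 20 (20%) and 7 of 43 (16.3%) in WT and 6 of 22 (27.3%) and 5 of 45 (11.1%) in p53 KO cells. The GABPA motif was in 2 of 20 (10%) and 7 of 43 (16.3%), and 1 of 22 (4.55%) and 9 of 45 (20%). At least 1 of the 3 was in 32 member promoters (45.1%), against 11.7% of all. The full set of promoters was not matched to the members in gene type, level or GC content. The higher shares are thus not shown to be particular to respiratory chain genes. These are matches of letters in a window and describe the sequence only.

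Levels per length differed widely between the genomes. Averaged over all 16 libraries and divided by the length of the principal transcript, the 13 mitochondrially encoded members ran from 237 to 3734 CPM per kb, with a median of 1594, and the 82 tested nuclear members from 0.74 to 909, with a median of 99.2. MT-CO1, the catalytic subunit of cytochrome c oxidase, was the highest at 3734 CPM per kb, followed by its partners MT-CO3 at 3177 and MT-CO2 at 2846. MT-ATP8 was the lowest mitochondrially encoded member, at 237 CPM per kb. The highest nuclear members were ATP5F1B, the catalytic beta subunit of ATP synthase, at 909 CPM per kb, and COX4I1, at 765.

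Some nuclear members lay far lower than partners from the same complex, and there the counting itself is uncertain. Of the 17 tested nuclear members with a mean under 20 CPM, 11 share exon bases on the same strand with another GENCODE 29 gene, against 4 of the 65 members at 20 CPM or more. Such overlaps covered at least 50% of the exon bases of 5 of the 17 (NDUFA11, NDUFA7, NDUFB8, NDUFV2 and ATP5PO) and of 0 of the 65. SDHA, the flavoprotein of complex II, held only 1376 counts over all 16 libraries and shows no such overlap, while its pseudogene SDHAP4 held 5559. NDUFV2, the complex I subunit, held 353 counts, while its pseudogene NDUFV2P1 held 4655. Pseudogenes of mitochondrially encoded members held counts too, with 45159 for MTATP6P1, 35063 for MTND2P28 and 5109 for MTCO1P12. Those named MTND1P23, MTCO2P12, MTCO3P12 and MTND4P12 held between 13 and 164. The levels of these members are given as counted, and how much of their RNA was assigned to other genes was not tested.

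**Figure D1:**
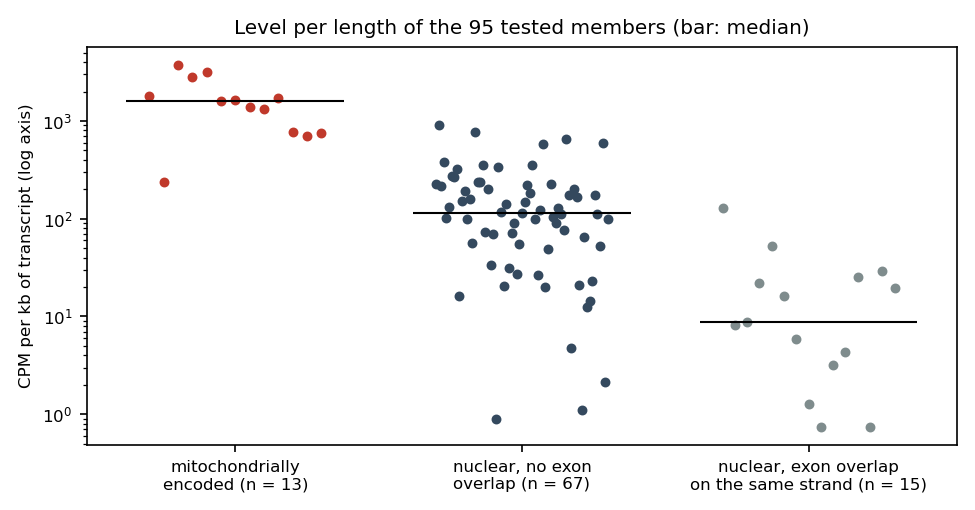
Mean level over all 16 libraries of each of the 95 tested members, in CPM per kb of the principal transcript on a log axis, for mitochondrially encoded members and for nuclear members without and with exon bases shared on the same strand (x axis; position within a column only separates the points, and bars are medians). The medians are 1594, 115 and 8.67 CPM per kb.

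Summed over all 13 genes, mitochondrially encoded mRNA was higher in p53 KO cells with vehicle than in the other groups. The 13 genes took up 1.94% of counts in WT cells with vehicle, 1.76% with GCN2iB, 2.6% in p53 KO cells with vehicle and 2.15% with GCN2iB. Their sum was 23190, 19533, 16891 and 18022 CPM in the libraries of WT cells with vehicle and 26457, 24004, 25947 and 23674 CPM in those of p53 KO cells with vehicle. It was 16877, 17117, 19607 and 18367 CPM in WT cells with GCN2iB and 19601, 21966, 21996 and 23550 CPM in p53 KO cells with GCN2iB. With vehicle every p53 KO library lay above every WT library, the means being 25021 ± 1387 and 19409 ± 2743 CPM (SD, n = 4), a ratio of 1.29. With GCN2iB the genotypes' ranges met, at a ratio of 1.21. Between vehicle and GCN2iB the p53 KO libraries did not overlap (ratio 0.87) and the WT libraries did (ratio 0.927), WT vehicle replicate 1 being the highest of that group. Without that library the WT ratio was 0.991 and the ratio of the genotypes with vehicle 1.38. In RNA of bulk cultures, fewer cells of a kind and less RNA per cell cannot be told apart.

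The summed level of the nuclear members was higher with the compound, without overlap in p53 KO cells alone. It was 11264, 11934, 12261 and 13283 CPM in WT cells with vehicle and 12982, 12569, 13766 and 13972 CPM with GCN2iB, with overlapping libraries. It was 10850, 11654, 11556 and 11786 CPM in p53 KO cells with vehicle and 12519, 12801, 12550 and 15809 CPM with GCN2iB, with no overlap. The mean with GCN2iB was 1.09 times that with vehicle in WT and 1.17 times in p53 KO cells. Replicate 4 of p53 KO cells with GCN2iB held the highest sum of all 16 libraries, and without it the p53 KO ratio was 1.1, still with no overlap. Without WT vehicle replicate 1 the WT ratio was 1.07. Replicate 4 held the highest sum in each of the 4 groups. In both genotypes each library with GCN2iB lay above the vehicle library of the same number, although the labels do not say that the numbers pair libraries.

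The ratio of the mitochondrially encoded to the nuclear-encoded sum was 2.06, 1.64, 1.38 and 1.36 in WT cells with vehicle, 1.3, 1.36, 1.42 and 1.31 in WT cells with GCN2iB, 2.44, 2.06, 2.25 and 2.01 in p53 KO cells with vehicle, and 1.57, 1.72, 1.75 and 1.49 in p53 KO cells with GCN2iB. Libraries with and without the compound did not overlap in p53 KO cells, where the mean log2 ratio was lower by a difference of −0.42 with GCN2iB. In WT cells they overlapped, with a difference of −0.23 that was −0.11 without WT vehicle replicate 1. Between the genotypes the log2 ratio was 0.27 higher in p53 KO cells with GCN2iB, with no overlap, and 0.46 higher with vehicle, where the lowest p53 KO library (2.01) lay under the highest WT library (2.06). As sums over chosen genes these ratios carry no p-value.

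**Figure D2:**
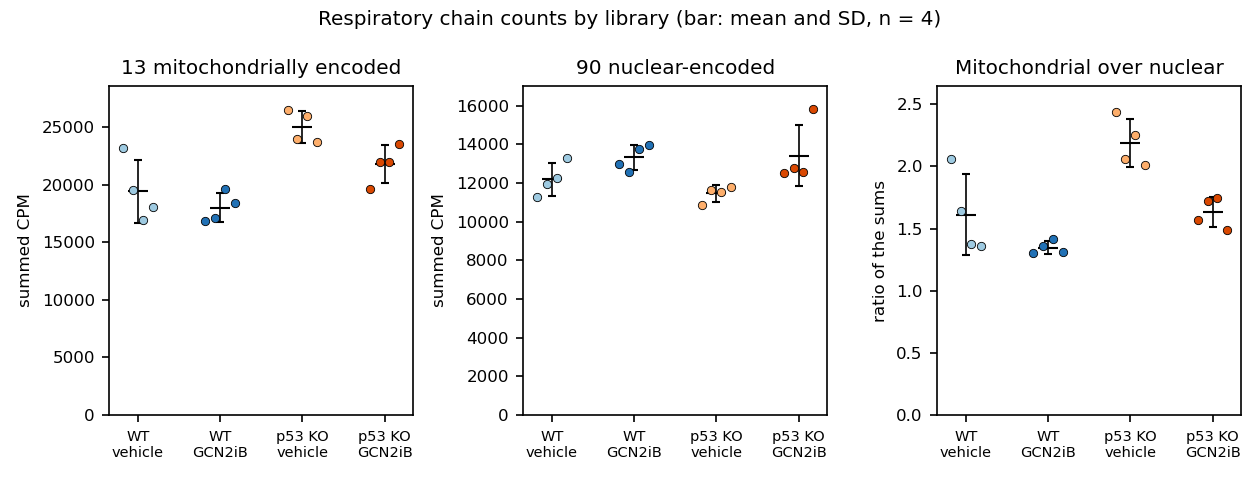
Summed level of the 13 mitochondrially encoded members, of the 90 nuclear-encoded members (both in CPM) and their ratio (no unit), by group (x axis). Each point is 1 library and bars are the mean and SD of 4 libraries. The ratio lies between 2.01 and 2.44 in p53 KO cells with vehicle and between 1.49 and 1.75 with GCN2iB.

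The mitochondrial rRNAs, encoded on the same strand as every mitochondrially encoded member but MT-ND6, gave a scale from within the mitochondrial genome. MT-RNR1 and MT-RNR2 together lay at 15438 ± 1953 CPM in WT and 18423 ± 1783 CPM in p53 KO cells with vehicle, and at 18087 ± 2986 and 18239 ± 2364 CPM with GCN2iB (SD, n = 4), with overlapping libraries in all 4 comparisons, and neither passed the test in any of them. The ratio of summed mRNA to rRNA was 1.26 in WT and 1.36 in p53 KO cells with vehicle, and 1.01 and 1.2 with GCN2iB. Libraries with and without the compound did not overlap in this ratio in either genotype, and the genotypes' libraries overlapped under both treatments. The part of any rRNA removal before sequencing in this ratio was not tested.

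With vehicle, the members called higher in p53 KO than in WT cells were all mitochondrially encoded. All 13 were above 0 in log2 fold change, with a median of 0.42, against 0.01 over all genes tested, and 11 of 13 rose at an adjusted p under 0.05 (edgeR quasi-likelihood test, Benjamini-Hochberg over all tested genes). The background in this direction was 9.63% of all genes. As the mitochondrially encoded genes are transcribed as long shared RNAs, their calls are not 13 separate observations. The libraries of 7 of the 13 did not overlap between genotypes, against 10.5% of all genes. Of the 82 nuclear members, 0 were higher and 6 fell, which is under the background of 12.1%. Their median was −0.01, with 39 above and 43 below 0. The libraries of 12 of the 82 did not overlap in the direction of a lower level, against 12.2% of all genes, and those of 0 in the other direction. Members called by complex were 6 of 7 mitochondrially encoded genes of complex I, the 1 of complex III, 2 of 3 of complex IV and both of complex V.

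Of the complex I genes, MT-ND1, which encodes a membrane subunit next to the ubiquinone site, was at 1585, 1407, 1153 and 1303 CPM in WT and 1936, 1979, 1965 and 1850 CPM in p53 KO cells with vehicle. No p53 KO library overlapped a WT library, and the log2 fold change was 0.50 (SE 0.08, adjusted p = 5.5e-05). MT-ND4, a proton-pumping subunit, was at 2543, 2051, 1708 and 1862 CPM in WT and 3022, 2771, 2888 and 2852 CPM in p53 KO cells, again without overlap (0.50, SE 0.09, adjusted p = 0.000344). MT-ND2 and MT-ND5, the other large pumping subunits, rose by 0.47 (adjusted p = 0.00327) and 0.41 (adjusted p = 0.00971). The short genes MT-ND3 and MT-ND4L rose by 0.59 and 0.42, with adjusted p of 0.0413 and 0.0439, and lost the call in 9 and 17 of 27 other settings of the analysis. MT-ND6, the only member on the light strand of mitochondrial DNA, was at 483, 409, 321 and 366 CPM in WT and 487, 497, 431 and 582 CPM in p53 KO cells, with overlap (0.34, adjusted p = 0.0566).

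In complex III, MT-CYB, the cytochrome b that carries electrons between the ubiquinone sites, was at 1868, 1606, 1386 and 1507 CPM in WT and 2325, 1962, 2218 and 2022 CPM in p53 KO cells, without overlap (log2 fold change 0.42, SE 0.09, adjusted p = 0.00084). In complex IV, MT-CO2, which takes electrons from cytochrome c, was at 1960, 1738, 1586 and 1731 CPM against 2314, 2270, 2558 and 2138 CPM, also without overlap (0.40, adjusted p = 0.000493). MT-CO1 overlapped between the genotypes, at 6968, 6009, 5230 and 5304 CPM in WT and 7133, 6555, 7228 and 6575 CPM in p53 KO cells, and rose by less (0.23, adjusted p = 0.0314). MT-CO3, the third membrane subunit of complex IV, did not pass the test (0.30, adjusted p = 0.0805). In complex V, MT-ATP6, which forms the proton path beside the rotor ring, was at 1277, 1148, 995 and 1090 CPM in WT and 1490, 1425, 1488 and 1476 CPM in p53 KO cells (0.38, adjusted p = 0.000576), and MT-ATP8, at 36.8 ± 8.79 and 53.8 ± 8.51 CPM (SD, n = 4), rose by 0.56 (adjusted p = 0.0344).

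The genotype call held for MT-ATP6, MT-CO2, MT-CYB, MT-ND1, MT-ND2, MT-ND4 and MT-ND5 in every setting run. The count of 11 was 7 without WT vehicle replicate 3 or without p53 KO vehicle replicate 1. Scaling moved the balance over all genes, of whose calls 44.4% were higher, or 60.7% with library totals as the only scaling, under which all 13 mitochondrially encoded members were called.

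**Figure D3:**
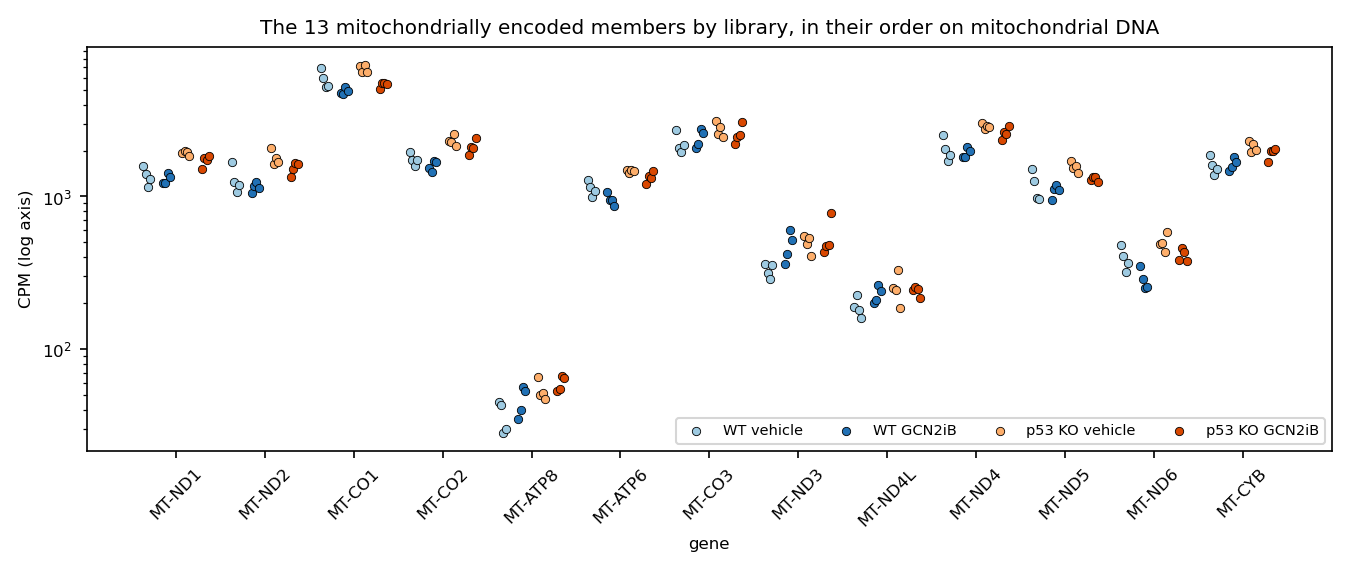
Level of each of the 13 mitochondrially encoded members in every library (y axis: CPM on a log axis; x axis: genes in their order on mitochondrial DNA), with 4 groups side by side for each gene. For MT-ND1 the 4 p53 KO libraries with vehicle, from 1850 to 1979 CPM, all lie above the 4 WT libraries with vehicle.

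With GCN2iB in both genotypes, all 13 mitochondrially encoded members were again above 0 in p53 KO against WT cells, with a median log2 fold change of 0.38 against 0.03 over all genes, and 7 of 13 rose, against a background of 12.7%. Here too the 13 are not separate observations. With the trend on GC content and length removed, 12 of the 13 were above 0, and without p53 KO GCN2iB replicate 4, 11 were. Without WT GCN2iB replicate 1, 11 were above 0 and 2 below, with a median of 0.24. MT-ND1 was at 1225, 1230, 1433 and 1347 CPM in WT and 1519, 1790, 1728 and 1841 CPM in p53 KO cells (0.39, SE 0.08, adjusted p = 0.000848). MT-ATP6 was at 1075, 942, 948 and 861 CPM against 1213, 1370, 1330 and 1470 CPM (0.49, adjusted p = 3.63e-05). Neither gene's libraries overlapped between the genotypes. MT-ND6 was at 350, 288, 252 and 257 CPM against 386, 458, 433 and 376 CPM, also without overlap (0.53, adjusted p = 0.0043). MT-CO2 rose by 0.41 (adjusted p = 0.000409), MT-ND4 by 0.44 (adjusted p = 0.00123) and MT-ND2 by 0.42 (adjusted p = 0.00777). MT-CYB rose by 0.24 (adjusted p = 0.0424), a call lost in 20 of 27 other settings. MT-ND5 (0.26), MT-ND3 (0.19), MT-CO1 (0.14), MT-CO3 (0.08), MT-ND4L (0.07) and MT-ATP8 (0.38) did not pass the test. The genotypes were compared in separate libraries under the 2 treatments, although in the same fit. In both, 6 mitochondrially encoded genes were called, which is 54.5% of the 11 and 85.7% of the 7. The same shares over all genes are not given.

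The compound lowered few mitochondrially encoded members, and MT-CO1 was the one called in both genotypes. In WT cells 3 of 13 fell and 0 rose, against backgrounds of 13.6% and 11.6%, with a median of −0.08. MT-ND3 rose in WT cells without p53 KO GCN2iB replicate 4 and in 6 other settings, and MT-ND4L with only those 2 groups in the fit. Of the 13, 1 fell in p53 KO cells and 0 rose, against backgrounds of 8.71% and 11.4%, with a median of −0.14 and 11 of 13 below 0. MT-CO1 with GCN2iB was at 4765, 4663, 5195 and 4914 CPM in WT and 5030, 5537, 5553 and 5463 CPM in p53 KO cells, so that in both genotypes no library with GCN2iB overlapped one with vehicle. It fell by 0.27 in WT (SE 0.07, adjusted p = 0.0104) and by 0.35 in p53 KO cells (SE 0.07, adjusted p = 0.00172), the latter in every setting run. MT-ND6 fell in WT cells from 395 ± 68.9 to 287 ± 45.2 CPM (SD, n = 4; log2 fold change −0.46, SE 0.12, adjusted p = 0.0105), with overlapping libraries, and MT-ATP6 fell by 0.24 (adjusted p = 0.0227). All 3 WT calls were lost without WT vehicle replicate 1, which held the highest level of each of these genes in its group, and the median of the 13 in WT was then 0.05. In p53 KO cells MT-ND6 (−0.27, adjusted p = 0.13) and MT-ATP6 (−0.13, adjusted p = 0.25) did not pass, while 4 of 13 fell with library totals as the only scaling or with every gene of at least 1 count tested, 5 with the trend on GC content and length removed, and 3 without WT vehicle replicate 1.

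Among the nuclear members, more rose than fell with the compound in both genotypes. In WT cells 22 of 82 rose (26.8%), against a background of 11.6%, and 5 fell (6.1%), against 13.6%. Their median log2 fold change was 0.15, against −0.03 over all genes, with 61 above 0. In p53 KO cells 26 of 82 rose (31.7%), against a background of 11.4%, and 0 fell, against 8.71%. Their median there was 0.23, against −0.01 over all genes, with 78 above 0. The libraries did not overlap, in the direction of a higher level, for 21 members in WT and 34 in p53 KO cells, against 11.9% and 11.6% of all genes. The 2 genotypes share no library here, although both were tested in the same fit, with a shared estimate of spread and scaling. In both, 13 members rose: ATP5F1D, ATP5MC3, COX6B1, NDUFA12, NDUFA3, NDUFA6, NDUFA8, NDUFB10, NDUFB4, NDUFS3, NDUFS4, NDUFS6 and SDHB. They are 59.1% of the 22 and 50% of the 26, and the same shares over all genes are not given. Of the members that rose, 16 of 22 in WT and 14 of 26 in p53 KO cells were called in every setting run, and 0 called members changed sign in any setting. In p53 KO cells 15 were called without replicate 4 of that group with GCN2iB, with a median of 0.13. In WT cells the count was 34 without WT vehicle replicate 4, 36 without p53 KO GCN2iB replicate 4, 36 with every gene of at least 1 count tested and 35 with only those 2 groups in the fit. Of all calls, 46% were higher in WT and 56.7% in p53 KO cells, which was 68% and 72% with the trend on GC content and length removed, and 34.4% in p53 KO cells with library totals as the only scaling. With that trend removed, 27 of 82 members rose in WT (32.9%) and 26 in p53 KO cells (31.7%), beside 21.3% and 21.1% of all genes.

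**Figure D4:**
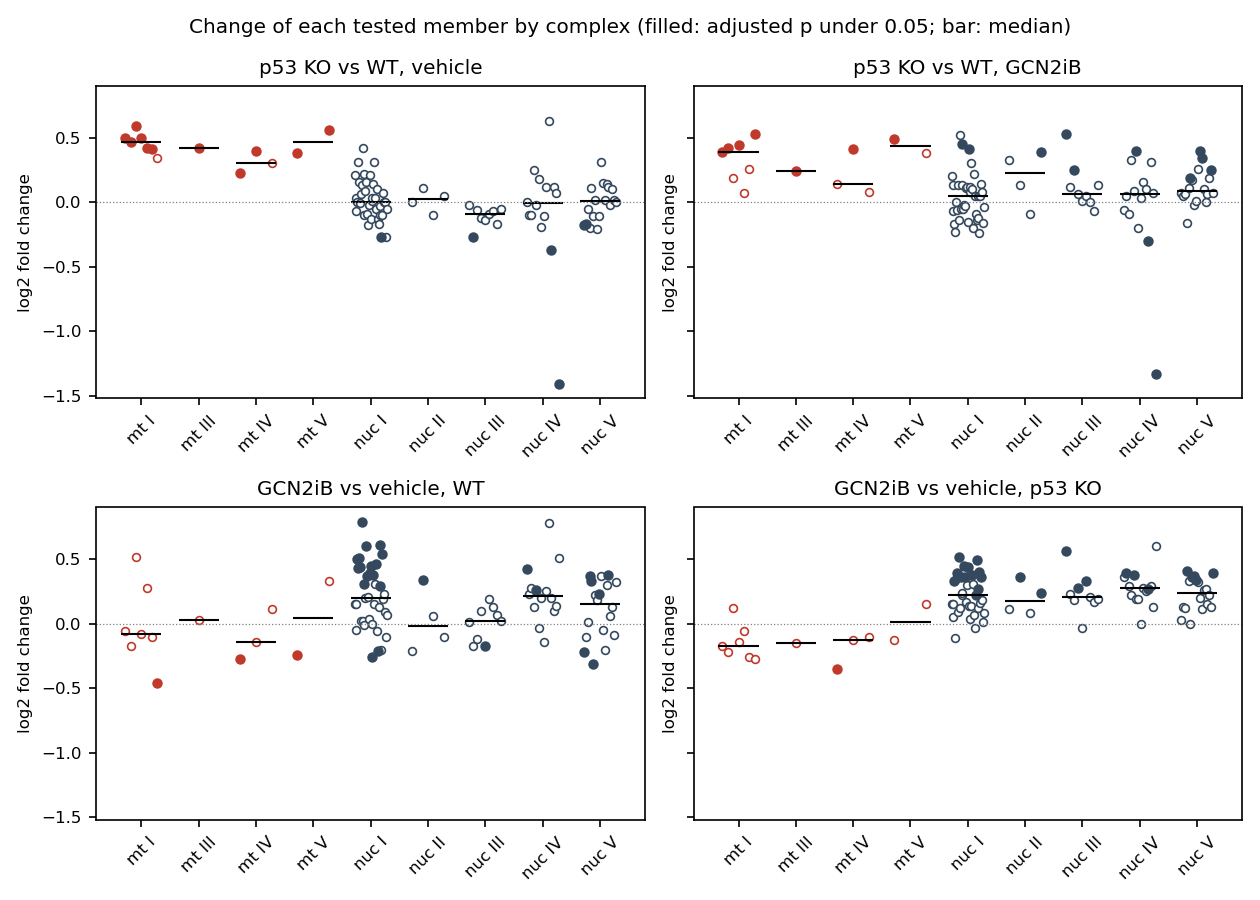
Log2 fold change (y axis) of each of the 95 tested members in the 4 comparisons (panels), split by genome (mt, mitochondrial; nuc, nuclear) and complex (x axis), with filled points for an adjusted p under 0.05 and bars for medians. Mitochondrially encoded members lie above 0 in the genotype comparisons, and nuclear members lie mostly above 0 with GCN2iB.

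Complex I held 15 of the 22 calls in WT and 13 of the 26 in p53 KO cells, among 37 tested nuclear members. These shares, 40.5% and 35.1%, stand beside 11.6% and 11.4% of all genes. NDUFS3, a core subunit of the peripheral arm encoded on chromosome 11, was at 78.5, 88.1, 85.7 and 97.8 CPM with vehicle and 113, 136, 142 and 142 CPM with GCN2iB in WT cells, without overlap (log2 fold change 0.61, SE 0.11, adjusted p = 0.000544). Its levels in p53 KO cells were 77.7, 87, 86.4 and 93.1 CPM with vehicle and 106, 110, 107 and 159 CPM with GCN2iB, also without overlap (0.49, SE 0.11, adjusted p = 0.00401). NDUFA6, an accessory subunit of the LYR family, had the largest change of a called member in WT cells, from 107 ± 8.99 to 186 ± 35.6 CPM (SD, n = 4; 0.79, SE 0.16, adjusted p = 0.00172). NDUFA6 rose in p53 KO cells by 0.52 (adjusted p = 0.0281), which was 0.31 (adjusted p = 0.0641) without p53 KO GCN2iB replicate 4, at 235 CPM the highest library of that gene. The membrane-arm subunit NDUFB4 was at 304, 344, 342 and 389 CPM with vehicle and 423, 420, 522 and 524 CPM with GCN2iB in WT cells, without overlap, and rose by 0.45 in WT (adjusted p = 0.00405) and 0.44 in p53 KO cells (adjusted p = 0.00662). NDUFB10, also of the membrane arm, rose by 0.37 (adjusted p = 0.00526) and 0.45 (adjusted p = 0.00158). NDUFS6 and NDUFA12, of the peripheral arm, rose by 0.54 and 0.50 in WT and by 0.40 and 0.33 in p53 KO cells.

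Complex I also held 2 of the 5 nuclear members that fell in WT cells (5.41% of its tested nuclear members, beside 13.6% of all genes). NDUFS1, the largest subunit, which carries iron-sulfur clusters, was at 206, 194, 199 and 188 CPM with vehicle and 173, 166, 169 and 171 CPM with GCN2iB, without overlap (log2 fold change −0.21, SE 0.05, adjusted p = 0.00572). The call was lost with the trend on GC content and length removed. NDUFB5 was at 23.2 ± 2.33 and 19.4 ± 2.24 CPM (SD, n = 4; −0.26, adjusted p = 0.037), a call lost in 9 of 27 other settings. NDUFS1 in p53 KO cells was at −0.03 (adjusted p = 0.728) and NDUFB5 at 0.14 (adjusted p = 0.268). Under GCN2iB, NDUFB5 was higher in p53 KO than in WT cells, at 25.9, 25.1, 23.9 and 27.8 CPM against 22.7, 18.8, 17.6 and 18.5 CPM, without overlap (0.41, adjusted p = 0.00154).

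Complex II, which has no mitochondrially encoded subunit, had 1 of 4 members called in WT and 2 of 4 in p53 KO cells, all higher. These shares, 25% and 50%, stand beside 11.6% and 11.4% of all genes. SDHB, the iron-sulfur subunit, was at 57.4, 62.3, 65.9 and 66.9 CPM with vehicle and 77.6, 74.7, 81.2 and 85.9 CPM with GCN2iB in WT cells (log2 fold change 0.34, SE 0.07, adjusted p = 0.0018). Its p53 KO libraries were at 61.3, 72.3, 69.8 and 70.3 CPM with vehicle and 83.3, 83.3, 83.4 and 100 CPM with GCN2iB (0.36, SE 0.07, adjusted p = 0.00131). Neither genotype's libraries overlapped, and SDHB was called in every setting in both. SDHD, a membrane anchor, was at 47.7, 46, 46.4 and 54.7 CPM in p53 KO cells with GCN2iB, above every library of the other 3 groups. Both comparisons that follow share these libraries. It rose by 0.24 with the compound in p53 KO cells (adjusted p = 0.0194), or 0.18 (adjusted p = 0.079) without p53 KO GCN2iB replicate 4, and by 0.39 over WT cells under GCN2iB (SE 0.07, adjusted p = 0.000335). SDHC, the other anchor, had group means of 170, 177, 158 and 167 CPM and SDHA of 2.61, 2.3, 2.66 and 2.84 CPM, in the order in which the groups are named at the start, and neither passed the test in any comparison.

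In complex III, 0 of 9 tested nuclear members rose in WT (beside 11.6% of all genes) and 3 rose in p53 KO cells (33.3%, beside 11.4%). UQCR10, a small subunit next to cytochrome c1, was at 12.1, 11.2, 12 and 11.8 CPM with vehicle and 17.4, 16.9, 15.2 and 19.6 CPM with GCN2iB in p53 KO cells, without overlap (log2 fold change 0.56, SE 0.10, adjusted p = 0.000526). In WT cells UQCR10 was at 11, 12.7, 11.2 and 12.8 CPM and 14.9, 11.1, 9.69 and 12.3 CPM (0.01, adjusted p = 0.978). UQCRFS1, the Rieske iron-sulfur protein, rose by 0.33 in p53 KO cells (adjusted p = 0.00216) and was at 0.19 in WT cells (adjusted p = 0.0559). UQCRC2, a core protein of the matrix side, fell in WT cells from 319 ± 6.95 to 283 ± 3.69 CPM (SD, n = 4; −0.17, adjusted p = 0.0134). UQCRH, the hinge protein, was at 0.13 in WT and 0.21 in p53 KO cells, and its copy UQCRHL, at a mean of between 4.2 and 4.93 CPM, at 0.07 and 0.17, and neither passed.

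In complex IV, 2 of 14 tested nuclear members rose in WT (14.3%, beside 11.6% of all genes) and 3 in p53 KO cells (21.4%, beside 11.4%). COX4I1, the ubiquitous form of the largest nuclear subunit, was at 430, 464, 463 and 536 CPM with vehicle and 554, 617, 679 and 689 CPM with GCN2iB in WT cells, without overlap (log2 fold change 0.42, SE 0.13, adjusted p = 0.0206), a call lost without WT vehicle replicate 1. The change in p53 KO cells was 0.36 (adjusted p = 0.0511), with 837 CPM in replicate 4 and between 521 and 558 CPM in the other 3 libraries with GCN2iB. COX6B1, on the intermembrane side, rose by 0.26 in WT (adjusted p = 0.0487) and by 0.38 in p53 KO cells (adjusted p = 0.00828). COX7C rose by 0.27 in p53 KO cells (adjusted p = 0.0456), or 0.13 (adjusted p = 0.216) without p53 KO GCN2iB replicate 4.

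Tissue-specific forms of complex IV were near or at 0 in these cells. Over all 16 libraries COX4I2, the lung form, held 4 counts, COX6A2 and COX7A1, the heart and muscle forms, held 2 and 67, and COX6B2 and COX8C, the testis forms, held 79 and 6. COX7B2 was tested at means of between 0.326 and 0.618 CPM. The widely expressed partners lay higher, with means in WT cells with vehicle of 473 ± 44.7 CPM for COX4I1, 10.8 ± 2.32 for COX6A1, 182 ± 21.1 for COX6B1, 167 ± 18.5 for COX7A2, 87.5 ± 8.23 for COX7B and 23.8 ± 4.84 for COX8A (SD, n = 4). COX6A1, COX7A2, COX7B, COX7B2 and COX8A passed the test in none of the 4 comparisons.

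In complex V, 4 of 18 tested nuclear members rose in WT (22.2%, beside 11.6% of all genes) and 5 in p53 KO cells (27.8%, beside 11.4%). The 3 genes ATP5MC1, ATP5MC2 and ATP5MC3 encode the same mature c-ring subunit with different import sequences. ATP5MC3 was at 222, 249, 264 and 274 CPM with vehicle and 297, 282, 300 and 303 CPM with GCN2iB in WT cells, and at 217, 233, 234 and 253 CPM and 282, 288, 272 and 343 CPM in p53 KO cells. Neither genotype's libraries overlapped, and the log2 fold changes were 0.23 (adjusted p = 0.0267) and 0.34 (adjusted p = 0.00199). ATP5MC1 rose by 0.36 in p53 KO cells (adjusted p = 0.0028) and was at 0.22 in WT cells (adjusted p = 0.0539). ATP5MC2 rose by 0.37 in p53 KO cells (adjusted p = 0.00305) and was at 0.18 in WT cells (adjusted p = 0.116).

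The other 2 nuclear members that fell in WT cells belong to complex V (11.1% of its tested nuclear members, beside 13.6% of all genes). ATP5IF1, which encodes the protein that inhibits ATP hydrolysis by the enzyme, was at 68.7, 71.3, 69.4 and 76 CPM with vehicle and 61.6, 51.9, 58.6 and 58 CPM with GCN2iB. No libraries overlapped, and it fell by 0.31 (SE 0.06, adjusted p = 0.00103) in every setting run. ATP5IF1 in p53 KO cells was at 65.9 ± 1.09 and 65.7 ± 4.53 CPM (SD, n = 4; adjusted p = 0.974), and under GCN2iB it was higher in p53 KO than in WT cells by 0.19 (adjusted p = 0.0311), a call lost in 17 of 27 other settings. ATP5F1A, the alpha subunit of the catalytic head, fell by 0.22 in WT cells (adjusted p = 0.00295), a call lost with the trend on GC content and length removed, and was at 0.03 in p53 KO cells (adjusted p = 0.777). Without WT vehicle replicate 1, WT GCN2iB replicate 3 or WT GCN2iB replicate 4, the 8 members of both genomes that fell in WT cells were 5.

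**Figure D5:**
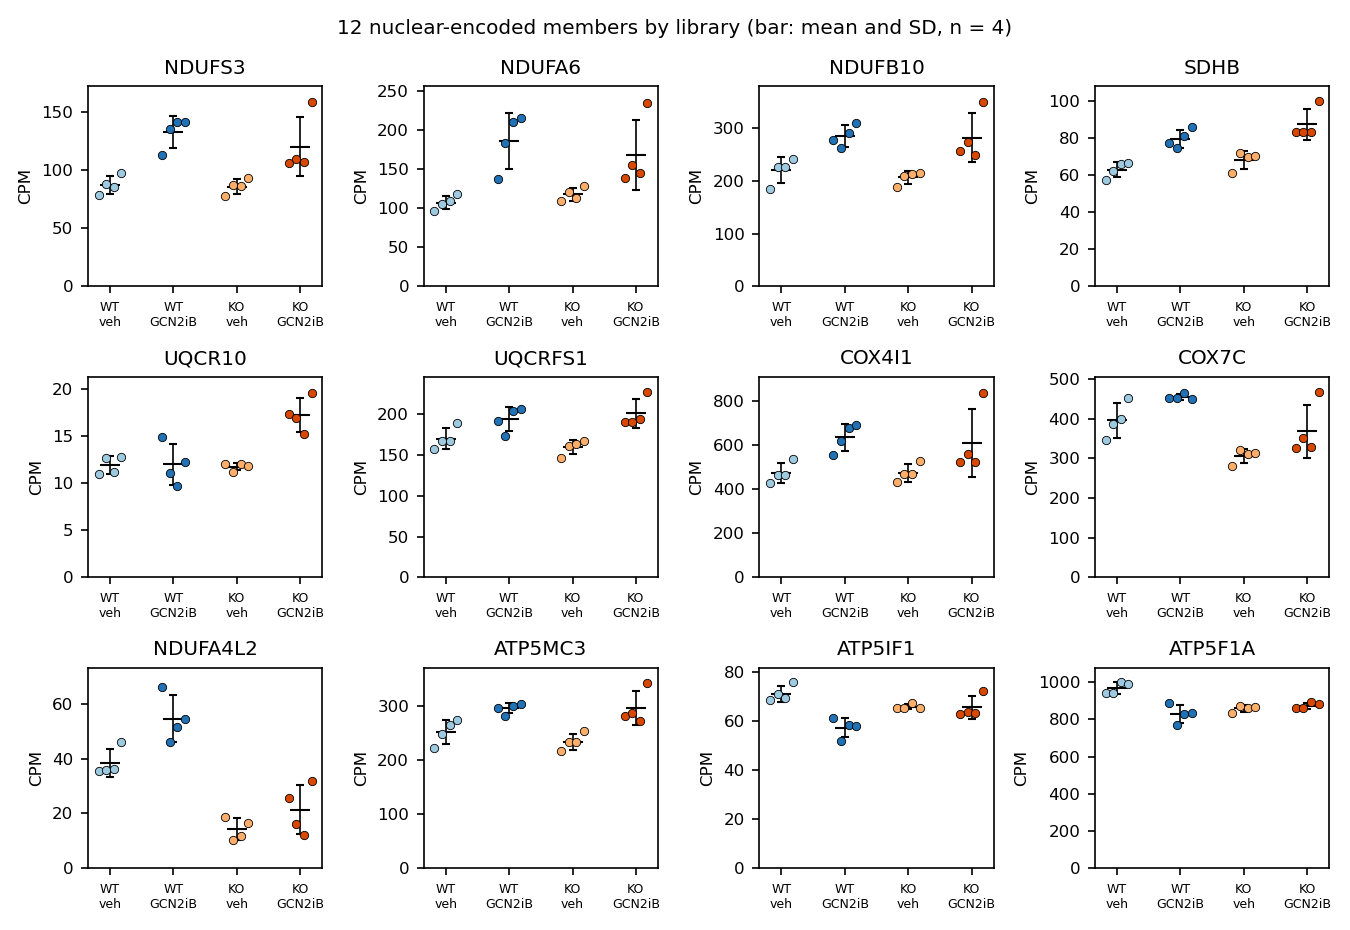
Level of 12 nuclear members in every library (y axes: CPM from 0, a scale for each gene; x axes: group, with veh for vehicle and KO for p53 KO). Each point is 1 library and bars are the mean and SD of 4 libraries. SDHB is higher with GCN2iB in both genotypes, ATP5IF1 is lower with it in WT cells, and NDUFA4L2 is lower in p53 KO cells.

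Between the genotypes, the member that differed most was a nuclear gene. NDUFA4L2, a paralog of the complex IV subunit NDUFA4 that is known as a hypoxia-induced gene, was at 35.3, 35.7, 36.3 and 45.9 CPM in WT and 18.8, 10.2, 11.8 and 16.6 CPM in p53 KO cells with vehicle. With GCN2iB it was at 66.1, 46.1, 51.6 and 54.5 CPM in WT and 25.5, 16.1, 12.2 and 31.9 CPM in p53 KO cells. The genotypes did not overlap under either treatment, and the log2 fold changes of p53 KO against WT were −1.41 (SE 0.27, adjusted p = 0.00181) and −1.33 (SE 0.26, adjusted p = 0.00239), called in every setting run. With the compound it was at 0.51 in WT (adjusted p = 0.168) and 0.60 in p53 KO cells (adjusted p = 0.144). NDUFA4 itself, at means of between 177 and 204 CPM, passed in no comparison.

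The other 5 nuclear members that fell in p53 KO cells with vehicle changed by less. COX7C was at 345, 387, 400 and 452 CPM in WT and 281, 322, 310 and 313 CPM in p53 KO cells, without overlap (log2 fold change −0.37, SE 0.09, adjusted p = 0.00561), and was also lower under GCN2iB (−0.30, adjusted p = 0.0202). NDUFS5 and UQCR11, small subunits of complexes I and III, fell by 0.27 each (adjusted p = 0.0185 and 0.0354), and ATP5F1A and ATP5F1B, the head of ATP synthase, by 0.18 and 0.17 (adjusted p = 0.0177 and 0.0248). This comparison and that of the compound in WT cells, where ATP5F1A also fell, share the WT vehicle libraries. The count of 6 was 3 with library totals as the only scaling, and 3 without WT vehicle replicate 3, WT vehicle replicate 4 or p53 KO vehicle replicate 1. It was 10 without p53 KO GCN2iB replicate 4, a library that enters this comparison through the shared estimate of spread and scaling.

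Under GCN2iB, 10 nuclear members were higher and 2 lower in p53 KO than in WT cells, shares of 12.2% and 2.44% against backgrounds of 12.7% and 11.2%, with a median of 0.07 against 0.03 over all genes. SDHD and NDUFB5 are given above, and UQCR10 rose by 0.53 (adjusted p = 0.00063). COX6C, a complex IV subunit, was at 40.8, 37.4, 41.4 and 43.6 CPM in WT and 49.2, 50.7, 52 and 63.8 CPM in p53 KO cells, without overlap (0.40, adjusted p = 0.00254). ATP5MF, of the membrane part of ATP synthase, rose by 0.40 (adjusted p = 0.00409), and UQCRB, which helps to form a ubiquinone site of complex III, by 0.25 (adjusted p = 0.0107). Only ATP5MF, NDUFB5, SDHD and UQCR10 of the 10 and NDUFA4L2 of the 2 were called in every setting run. Without replicate 4 of p53 KO cells with GCN2iB, 6 nuclear members were higher and 14 lower, with a median of −0.03. The 2 called lower were 1 without p53 KO GCN2iB replicate 2.

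No member passed the test for a difference between the GCN2iB responses of the genotypes, and 1 of 18549 genes did (0.00539%). At an unadjusted p under 0.05 there were 12 of 95 members (12.6%) and 1754 of all genes (9.46%). DESeq2 and limma voom likewise called 0 members. UQCR10 had the smallest unadjusted p (0.00115), with a difference between the responses of 0.55 on the log2 scale (adjusted p = 0.315), and passed without WT GCN2iB replicate 1. The differences were 0.40 for NDUFB5, 0.34 for SDHD (adjusted p = 0.334 for both) and 0.31 for ATP5IF1 (adjusted p = 0.324), and for the mitochondrially encoded members adjusted p ran from 0.628 to 0.988. The calls seen in 1 genotype and not in the other, above, are thus not shown to differ between them.

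Genes that build the complexes were counted in the same way. Of 59 assembly factors, 21 rose and 2 fell with GCN2iB in WT cells (35.6% and 3.39%, median 0.17), and 19 rose and 0 fell in p53 KO cells (32.2% higher, median 0.20), beside 11.6% and 11.4% of all genes that rose. NDUFAF4, of complex I assembly, rose by 0.33 and 0.37, COA3, which stabilises new MT-CO1 protein, by 0.47 and 0.45, and TMEM70, of complex V assembly, by 0.43 and 0.27. Between the genotypes, 1 assembly factor was higher and 4 were lower in p53 KO cells with vehicle, and 6 and 6 with GCN2iB. These shares, 1.69% and 6.78% with vehicle and 10.2% each with GCN2iB, lie under the backgrounds of 9.63%, 12.1%, 12.7% and 11.2%. SDHAF4, which acts on the complex II flavoprotein, was lower in p53 KO cells by a log2 fold change of −0.58 with vehicle (adjusted p = 1.38e-05) and −0.49 with GCN2iB. UQCC1, of complex III assembly, was lower by −0.65 (adjusted p = 1.99e-06) and −0.44. COA6, which works on the copper site of MT-CO2, was higher by 0.36 and 0.50.

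Of 30 genes for transcription of mitochondrial DNA and handling of its RNA, 5 rose and 3 fell with GCN2iB in WT and 5 rose and 1 fell in p53 KO cells (medians 0.03 and 0.10). The shares that rose, 16.7% in each genotype, stand beside 11.6% and 11.4% of all genes, and those that fell, 10% and 3.33%, beside 13.6% and 8.71%. GRSF1, a protein of mitochondrial RNA granules that binds light-strand RNA including MT-ND6, fell by 0.49 in WT (adjusted p = 7.6e-07) and by 0.30 in p53 KO cells (adjusted p = 0.000356). Between the genotypes 1 was higher and 2 were lower with vehicle, and 3 and 0 with GCN2iB, shares of at most 10% and under the backgrounds. MTERF4, which acts on the mitochondrial ribosome, was higher in p53 KO cells by 0.33 (adjusted p = 0.000258) and 0.42 (adjusted p = 1.31e-05). Of 10 regulators of mitochondrial biogenesis, 4 rose and 0 fell with the compound in each genotype (40%, beside 11.6% and 11.4%, medians 0.28 and 0.20). YY1, whose motif is shown above, rose by 0.32 (adjusted p = 9.18e-05) and 0.31 (adjusted p = 0.000134), and NRF1 rose in p53 KO cells by 0.37 (adjusted p = 0.00039). Between the genotypes 2 of these regulators were higher with vehicle (20%, beside 9.63% of all genes) and 1 with GCN2iB (10%, beside 12.7%). Under either treatment 0 were lower, beside 12.1% and 11.2%.

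Of 16 genes of cytochrome c and ubiquinone, 2 rose (12.5%, near the background of 11.6%) and 1 fell (6.25%, beside 13.6%) with GCN2iB in WT. In p53 KO cells 8 rose (50%, beside 11.4%) and 0 fell, beside 8.71%. CYCS, cytochrome c itself, rose by 0.31 (adjusted p = 0.000453) and 0.36 (adjusted p = 0.000135). Of 13 enzymes of the citric acid cycle, 2 rose and 5 fell in WT cells (15.4% and 38.5%, beside 11.6% and 13.6% of all genes, median −0.11). In p53 KO cells 3 rose and 0 fell (23.1% higher, beside 11.4%, median 0.05). IDH3A rose by 0.28 in WT (adjusted p = 0.00191) and 0.29 in p53 KO cells (adjusted p = 0.00157). CS, citrate synthase, fell by 0.23 with the compound in WT cells and by 0.19 in p53 KO against WT cells with vehicle. In the latter comparison 5 of the 13 fell (38.5%, beside 12.1%) and 0 rose. Both comparisons share the WT vehicle libraries. Between the genotypes under GCN2iB, which does not use them, 1 was higher (7.69%, beside 12.7%) and 0 were lower, with a median of 0.03.

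Ribosomal proteins of both compartments also rose more often than they fell with the compound. Of 77 mitochondrial ribosomal proteins, 41 rose (53.2%) and 4 fell with GCN2iB in WT (median 0.27), and 51 rose (66.2%) and 1 fell in p53 KO cells (median 0.31). Of 85 cytosolic ribosomal proteins, 37 rose (43.5%) and 2 fell in WT (median 0.23), and 62 rose (72.9%) and 0 fell in p53 KO cells (median 0.32), beside 11.6% and 11.4% of all genes. With vehicle, 10 of the mitochondrial ones were lower in p53 KO cells (13%, near the background of 12.1%), 25 of the cytosolic ones were lower (29.4%), and 0 of either were higher. In p53 KO GCN2iB replicate 4, where many nuclear members were highest, the cytosolic ribosomal proteins summed to 100384 CPM, the highest of its group, whose lowest library held 74817. The part of these shared movements in the results for the nuclear members was not tested.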

How the data were processed

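Gene counts for 16 libraries were used as deposited by the authors, as whole-number counts per Ensembl gene. Per the submitters' processing notes, Trim Galore, HISAT2, featureCounts and DESeq2 were used with GRCh38, without versions. Which annotation release and which strand option were used is not stated in the notes. Genes kept by filterByExpr were tested with edgeR 4.0.16 (R 4.3.3), with TMM scaling, 1 term per group over all 16 libraries, glmQLFit with robust estimation, glmQLFTest (two-sided) and Benjamini-Hochberg adjustment over all 18549 genes of each comparison at 0.05. CPM are TMM-scaled. In each library 99.906% or more of the counts fell in tested genes. Fold changes are edgeR's, given as log2 with SE. Gene positions and lengths came from GENCODE 29, and promoters from RefSeq. The members and lists were chosen with earlier results of these data known. Named were all mitochondrially encoded members, in each comparison up to 6 nuclear members in each direction with the smallest adjusted p, complex II, isoform pairs and ATP5IF1, and up to 3 called genes of each other list, of which those described are a selection. Alternatives were DESeq2 size factors, library totals, scaling without mitochondrially encoded genes, other count filters, DESeq2 1.42.0, limma 3.58.1 (voom), fits of only the groups compared, a replicate block, removal of GC and length trends, and leaving out libraries. The test was also run on counts simulated for independent libraries. These hold no replicate structure, so that run does not show how the test performs on these data. Sums over members have no test. The level of the targeted gene is not reported here.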

Additional observations from a re-analysis of the deposited data

Results flagged for a closer look

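In groups of 4 libraries, the highest or lowest library was set against the range of its group for 29 quantities given per library, which makes 116 groups, of which chance marks about 1 in 20. In 11 of them 1 library stood apart by the ratio of its gap to the range (Dixon's test at 95%). Replicate 4 of p53 KO cells with GCN2iB accounted for 8 of the 11. Its summed level of nuclear members was 15809 CPM, where the other 3 libraries lay between 12519 and 12801. In the same library NDUFS3 was at 159 CPM, NDUFA6 at 235, NDUFB4 at 549, SDHB at 100, UQCRFS1 at 228, COX4I1 at 837 and ATP5IF1 at 72.5, each the highest of its group. Replicate 4 of WT cells with vehicle held 50.4 CPM of COX6C and 45.9 CPM of NDUFA4L2, each the highest of its group. ATP5IF1 in p53 KO cells with vehicle was at 67.6 CPM in replicate 3 and between 65.3 and 65.5 in the others.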

How the results depend on the processing

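Named genes and lists gave 2409 results with the same call, 150 with the call lost and 30 with a call gained over the settings that kept every library or left out a pair, and 3473, 309 and 10 with 1 of the 16 libraries left out, with no change of direction among called members. In WT cells, members higher with GCN2iB numbered 22, or 36 with every gene of at least 1 count tested and 37 with only the 2 groups in the fit (17 to 37 with any 1 of the 16 libraries left out, of either genotype). Members lower there numbered 8, or 5 without both GCN2iB replicate 4 libraries (5 to 9). In p53 KO cells, members higher with GCN2iB numbered 26, or 15 without both replicate 4 libraries (15 to 35), and lower 1, or 4 with library totals, 4 with every gene of at least 1 count, 5 with the GC and length trend removed and 2 with only the 2 groups in the fit (1 to 3). Between the genotypes with vehicle, 11 were higher (7 to 12) and 6 lower, or 3 with library totals (3 to 10). With GCN2iB 17 were higher, or 10 without both replicate 4 libraries (12 to 19), and 2 lower, or 5 with every gene of at least 1 count, 4 with the GC and length trend removed and 10 without both replicate 4 libraries (1 to 14). For the difference between responses, 0 were higher (0 to 1) and 0 lower (0 to 0). Differences in the log2 ratio of the 2 sums, with 1 library left out, ran from −0.31 to −0.11 and from −0.46 to −0.37 for the compound in WT and p53 KO cells, from 0.39 to 0.59 and from 0.23 to 0.31 for genotype with vehicle and GCN2iB, and from −0.32 to −0.12 for the difference between responses. The cause of these changes was not tested. The settings also differ in the number of genes or libraries that they leave. With the replicate number as a block, members higher with GCN2iB were 36 in WT and 44 in p53 KO cells, members lower by genotype were 11 with vehicle and 4 with GCN2iB, mitochondrially encoded members higher by genotype were 8 and 6 in place of 11 and 7, nuclear members higher were 3 and 13 in place of 0 and 10, and 1 (NDUFB5) was called for the difference between responses. The labels do not say whether the replicate numbers pair the libraries, and the main fit has no term for them. Of 24 same-numbered pairs, 5 had a correlation of deviations above 0.1, and the median was 0.0366, against −0.0107 for other pairs. Of the 16 libraries, 13 correlated best with one of their own number. This is a hint of pairing from the data and not from the design. The 8 members that were not tested and the 17 nuclear members under 20 CPM had the lowest levels. This limits what is known of them, and the reason was not tested.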
